A study of Homo sapiens with 6 samples.

Results

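The transcripts described here were those of 41 human genes that copy DNA or mark S phase, the part of the cell cycle in which the genome is duplicated. They were chosen by name, and each was found by matching its Ensembl identifier to its symbol through GENCODE release 29. All 41 were listed among the 19746 genes of the joined RNA-Seq tables, and 40 of them were among the 12756 genes with enough signal to be tested. The remaining gene, CCNE2, averaged less than 0.5 FPKM (fragments per kilobase, a level scaled by transcript length and by library size) over the 6 libraries.

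RNA-Seq had been performed in SW480, an established human colorectal cancer cell line, to look for genes that respond to loss of PCYT2. PCYT2 encodes the enzyme that makes CDP-ethanolamine, the activated head group from which phosphatidylethanolamine is built. The 3 groups were cells with a nontargeting short hairpin RNA (shNT), cells with a first hairpin against PCYT2 (shPCYT2-1), and cells with a second one (shPCYT2-2), with 2 libraries each. In the study's methods the knockdown hairpins were carried by a pLKO.1 lentiviral vector and infected cells were selected with puromycin, so each group stands for a single hairpin in a selected cell population. No label says whether the 2 libraries of a group came from separate cultures, so p values measure only the spread between these libraries. The deposited values added up to between 396467 and 402612 FPKM per library over 18806 to 19209 identifiers, and the number of reads behind them was unknown.

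PCYT2 itself (chromosome 17, 81900965 to 81911464, GRCh38) was at 11.6 and 13.8 FPKM with shNT, 7.11 and 7.36 FPKM with shPCYT2-1, and 6.71 and 6.18 FPKM with shPCYT2-2. Every knockdown library lay below both control libraries. The log2 fold change was -0.73 (SE 0.10, limma adjusted p = 0.00205) for shPCYT2-1 and -0.88 (SE 0.10, limma adjusted p = 0.00261) for shPCYT2-2, and the 2 hairpins differed by -0.15 (limma adjusted p = 0.309). Fold changes here and below are differences of log2(FPKM + 1), which understate the change of genes with low values, and a gene was called when its adjusted p over all 12756 genes was under 0.05.

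The labelled cell type was checked against marker genes. All 7 colorectal epithelial markers were listed, and their summed level was 8210 and 8769 FPKM with shNT, 8432 and 8525 FPKM with shPCYT2-1, and 6257 and 6554 FPKM with shPCYT2-2. The keratin KRT8 was the most abundant of them. With shPCYT2-1, 0 of the 7 were called higher and 1 lower, the transcription factor CDX2 (-0.65, limma adjusted p = 0.00138). With shPCYT2-2, 0 were called higher and 3 lower, KRT8 (-0.41), KRT18 (-0.45) and KRT19 (-0.44), while EPCAM (0.11), CDH1 (0.19) and VIL1 (0.14) were not called. By comparison, 16.5% of all genes were called higher and 10.1% lower with shPCYT2-1, and 7.69% and 4.74% with shPCYT2-2. Of 6 fibroblast markers 5 were listed, COL3A1 was not, and the summed level ran from 2.25 to 4.10 FPKM with LUM the most abundant. LUM was called higher with shPCYT2-1 (0.81, limma adjusted p = 0.00192), at 0.789 and 0.863 FPKM with shNT and 2.17 and 2.24 FPKM with that hairpin. Among 6 leukocyte markers PTPRC was not listed and the sum ran from 19.1 to 25.5 FPKM, with CD68 the most abundant. The 4 endothelial markers added up to 0.513 to 0.769 FPKM, with CDH5 the most abundant. The part of these marker levels in the results below was not tested.

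Replication starts with licensing, in which the origin recognition complex, CDC6 and CDT1 load the MCM2 to MCM7 helicase onto DNA during G1. MCM10, CDC45 and the GINS complex then turn that helicase on, primase and the DNA polymerases copy the strands, and the PCNA ring, placed by the RFC clamp loader, holds the polymerases on DNA. Many of these genes are transcribed together at the G1/S boundary by E2F factors, which the retinoblastoma protein restrains until cyclin-dependent kinases release them.

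Because E2F control is textbook background for these genes, the promoters of 4 of them are shown. They were the 4 members that held an E2F word and had the highest log2 fold change averaged over both hairpins. Each run is the 300 bases from 250 before to 50 after the start that RefSeq gives on GRCh38.p14, read 5′ to 3′ on the strand of the gene, and capitals mark the E2F word.
GINS1 (chr20:25407423-25407722, plus strand): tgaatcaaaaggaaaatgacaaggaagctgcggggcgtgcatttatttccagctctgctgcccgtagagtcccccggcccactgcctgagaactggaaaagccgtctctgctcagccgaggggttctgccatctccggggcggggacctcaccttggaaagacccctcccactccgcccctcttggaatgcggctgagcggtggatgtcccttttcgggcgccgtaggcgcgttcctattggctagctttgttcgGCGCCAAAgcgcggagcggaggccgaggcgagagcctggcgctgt
RFC3 (chr13:33817899-33818198, plus strand): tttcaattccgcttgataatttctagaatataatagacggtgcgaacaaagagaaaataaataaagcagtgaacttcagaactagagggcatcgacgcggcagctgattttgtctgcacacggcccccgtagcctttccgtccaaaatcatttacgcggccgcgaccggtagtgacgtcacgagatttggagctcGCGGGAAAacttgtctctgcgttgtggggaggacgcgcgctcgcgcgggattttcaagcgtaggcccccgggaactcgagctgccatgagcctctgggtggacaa
POLE2 (chr14:49688165-49688464, minus strand): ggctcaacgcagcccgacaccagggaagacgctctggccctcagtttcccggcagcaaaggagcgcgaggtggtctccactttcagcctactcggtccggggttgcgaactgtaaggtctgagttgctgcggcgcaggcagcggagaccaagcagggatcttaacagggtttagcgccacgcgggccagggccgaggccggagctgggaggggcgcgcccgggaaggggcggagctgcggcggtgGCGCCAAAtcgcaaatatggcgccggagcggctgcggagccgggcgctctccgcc
UHRF1 (chr19:4909251-4909550, plus strand, 1 of its 3 windows): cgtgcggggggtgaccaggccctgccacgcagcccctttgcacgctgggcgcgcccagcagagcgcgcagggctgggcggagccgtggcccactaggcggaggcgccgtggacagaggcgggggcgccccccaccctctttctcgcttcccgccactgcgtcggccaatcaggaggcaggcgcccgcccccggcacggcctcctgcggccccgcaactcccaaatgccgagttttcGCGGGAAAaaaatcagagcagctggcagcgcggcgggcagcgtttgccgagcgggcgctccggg

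The E2F word was any of TTTCCCGC, TTTCGCGC, TTTGCCGC and TTTGGCGC, looked for on both strands, and none of the 4 words holds either of the shorter words below. In each promoter shown the match was on the opposite strand, so the capitals are the reverse complement of a listed word. Promoter windows were at hand for 35 of the 41 members. An E2F word was found for 18 of those 35 genes (51.4%) and for 3.99% of all 27305 genes with a window. This background, also used for the shorter words, includes genes that were not tested here. It was not matched to the members in level or base composition. Among the 13 members with a window that were called higher with shPCYT2-1, 7 held it (53.8%). RRM2, RRM1, RFC2, RFC4, ORC6 and RPA1, which were also called higher, did not hold these letters in their windows. The CCAAT word was found for 62.9% of the members and 39.7% of all genes, and the cell cycle homology region word TTTGAA, a feature of genes expressed in G2 and M phase, for RRM1 alone of the 35 members (2.86%, against 18.2% of all genes). These matches describe letters in a window and are not measured binding sites.

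In control cells the members covered a wide range of levels. MCM7, a helicase subunit, was the most abundant at 199 and 217 FPKM, and PCNA came next at 91.1 and 93.5 FPKM. POLD1, the catalytic subunit of polymerase delta, averaged 42.4 FPKM (SD 4.04, n = 2), and MCM2 and MCM3 averaged 41.8 FPKM (SD 3.21) and 33.7 FPKM (SD 3.81). MCM7 and PCNA stood clear of every other member, whereas POLD1 and MCM2 differed by less than the spread between their libraries. At the low end were POLE2, a polymerase epsilon subunit, with a mean of 1.64 FPKM, E2F2 with 0.737 FPKM and the cyclin CCNE2 with 0.283 FPKM. The 6 MCM2 to MCM7 subunits form a ring with 1 copy of each, yet the MCM7 transcript level was 17.4 times that of MCM5. FPKM is scaled by transcript length, so such levels can be roughly set side by side. Other differences between genes, such as base composition or shared exon bases (8.94% of MCM7, with AP4M1), are not removed.

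**Figure D1:**
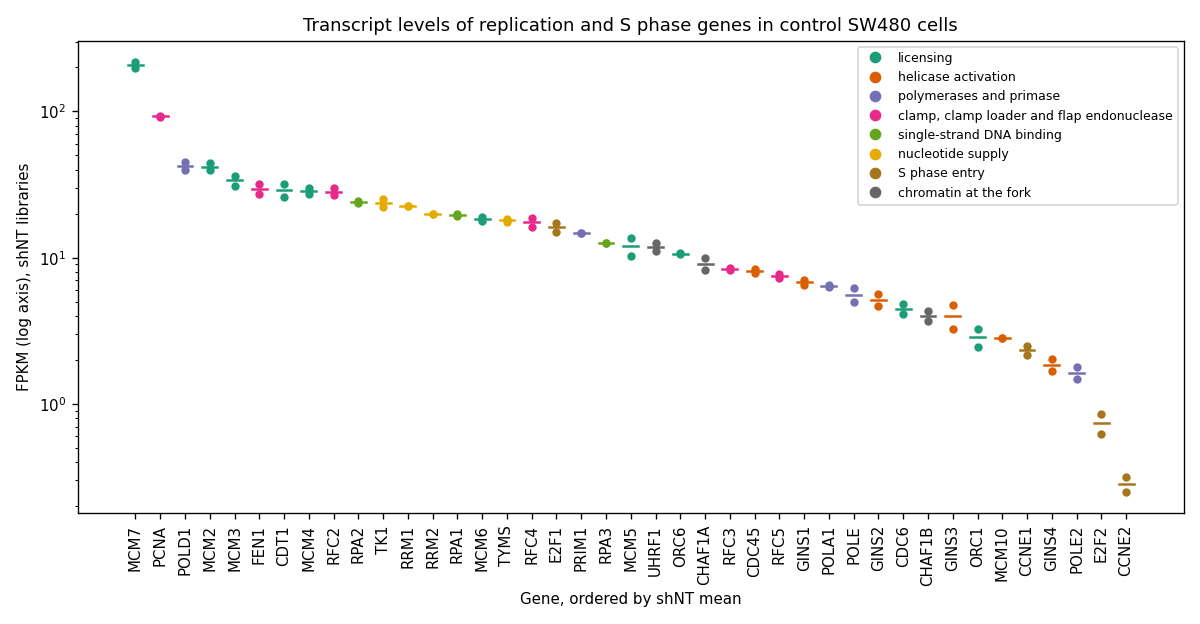
FPKM of the 41 replication and S phase genes in the 2 shNT libraries (points, log axis), ordered by their mean (line) and colored by role. MCM7 and PCNA lie above all others, and CCNE2, at 0.283 FPKM, is the lowest.

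The first hairpin went with higher levels of replication transcripts. With shPCYT2-1, 14 of the 40 tested members were called higher than with shNT and 0 lower (35% of the members, against a background of 26.7% of all 12756 genes called in either direction, 16.5% higher and 10.1% lower). At an unadjusted limma p under 0.05 the counts were 23 higher and 0 lower, with 25.9% and 15.0% of all genes. The median log2 fold change of the members was 0.27, and that of all genes tested was 0.07. A positive fold change was seen for 36 of the 40 members and for 59.8% of all genes. In 30 members both shPCYT2-1 libraries lay above both shNT libraries (43.3% of all genes did so), in 1 member, POLD1, they lay below (25.6% of all genes), and in 9 the libraries overlapped. Rescaling the libraries by median ratios left 11 members called higher and 0 lower, and under that scaling the genes called over the whole table split into 11.1% higher and 13.8% lower. The count of members called was 5 without shPCYT2-1 replicate 1, 9 without shNT replicate 1 (8 higher and 1 lower) and 5 with no filter on low values, where 8.99%, 24.1% and 9.27% of all genes were called. In bulk libraries a larger share of cells in S phase and more transcript per cell cannot be told apart.

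With the second hairpin fewer members passed the threshold, and in both directions. With shPCYT2-2, 3 members were called higher (GINS1, RRM2 and MCM4) and 1 lower (CDT1), which is 10% of the members against a background of 12.4% of all genes in either direction, 7.69% higher and 4.74% lower. The unadjusted counts were 5 higher and 2 lower (19.6% and 11.6% of all genes), 27 of the 40 fold changes were positive (58.1% of all genes), and the median log2 fold change was 0.11, with 0.04 for all genes tested. Both shPCYT2-2 libraries lay above both shNT libraries for 11 members (35.1% of all genes) and below them for 4 (CDT1, GINS2, POLD1 and RPA1; 22.4% of all genes), and they overlapped for 25. Both hairpins were compared with the same 2 shNT libraries, so the fold changes are not independent of each other. The shPCYT2-2 counts also turned on single libraries, with 1 member called without shNT replicate 2 or without shPCYT2-2 replicate 2 and 0 called without shPCYT2-2 replicate 1, where the unadjusted count was 6 and the median log2 fold change -0.02. Calls over all genes fell in the same fits, to 3.16%, 4.41% and 0.98%.

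The hairpins were also compared directly in the same fit, in which the shNT libraries enter the estimate of the spread but not the difference. With shPCYT2-2, 11 of the 40 members were called lower than with shPCYT2-1 and 0 higher (27.5%, against a background of 27.1% of all genes in either direction, 14.2% lower and 12.9% higher). At an unadjusted limma p under 0.05, 16 were lower and 0 higher (21.6% and 18.6% of all genes). A positive difference was seen for 5 members and for 46.0% of all genes, and the median log2 difference was -0.19 for the members and -0.02 for all genes. In 21 members both shPCYT2-2 libraries lay below both shPCYT2-1 libraries (36.5% of all genes) and in 1, RPA2, above (30.7% of all genes). Without shPCYT2-1 replicate 1 the count called lower was 3 (CDT1, RFC3 and UHRF1), and without shPCYT2-2 replicate 2 it was 2 (CDT1 and RFC3), with 13.0% and 14.8% of all genes called in either direction.

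**Figure D2:**
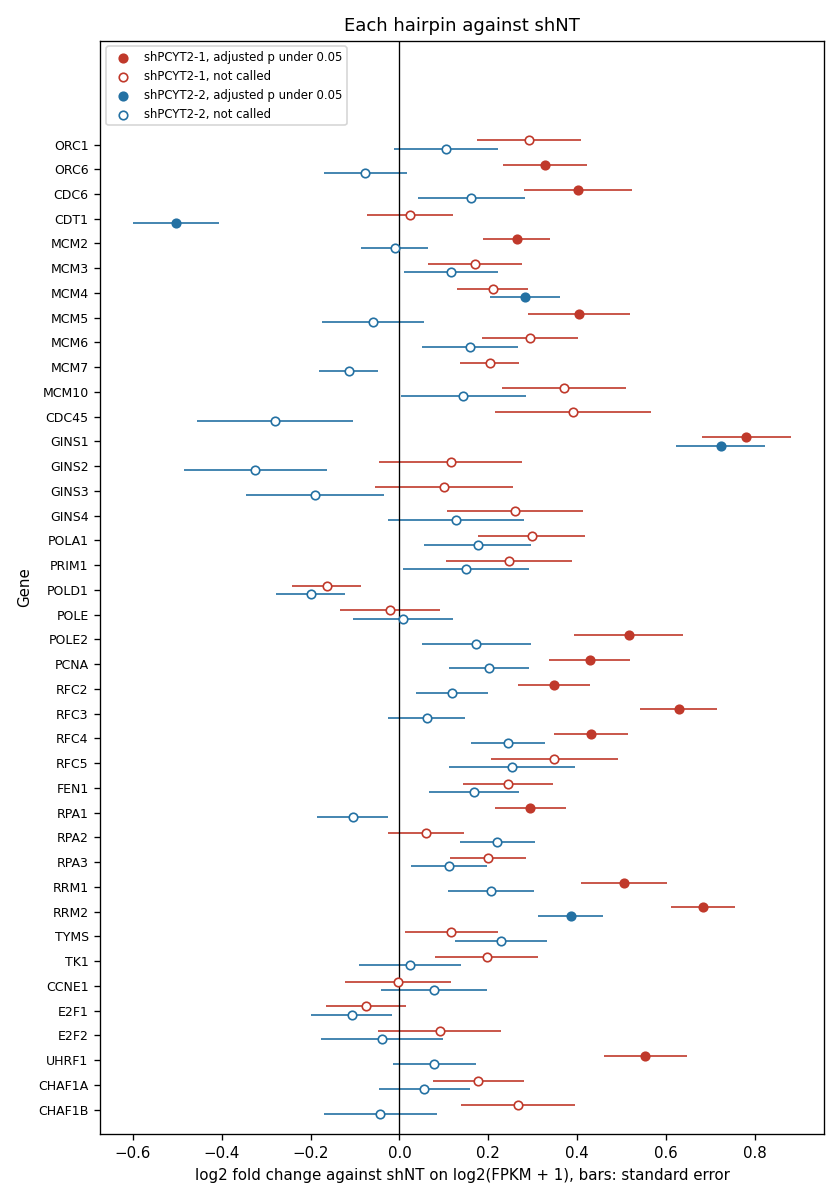
Log2 fold change against shNT on log2(FPKM + 1) for the 40 tested members, with shPCYT2-1 in red and shPCYT2-2 in blue. Bars are standard errors and filled points have a limma adjusted p under 0.05. Of the filled points 14 are red and lie right of zero, and GINS1 is the member with the highest value for both hairpins.

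Among the licensing genes, 4 of 10 were called higher with shPCYT2-1 (ORC6, CDC6, MCM2 and MCM5) and 0 lower, and all 10 had positive fold changes. Over all genes 16.5% were called higher and 59.8% had positive fold changes. ORC6, a subunit of the origin recognition complex, was at 10.6 and 10.7 FPKM with shNT, 13.9 and 13.4 FPKM with shPCYT2-1, and 10.98 and 9.22 FPKM with shPCYT2-2. The shPCYT2-1 libraries were above all the others, and the shPCYT2-2 libraries fell on both sides of the controls. Its log2 fold change was 0.33 (SE 0.09, limma adjusted p = 0.0325) with shPCYT2-1, and shPCYT2-2 was lower than shPCYT2-1 by a log2 difference of -0.40 (limma adjusted p = 0.0132). CDC6, the loader that works with CDT1, was at 4.13 and 4.81 FPKM with shNT, 6.27 and 6.15 FPKM with shPCYT2-1, and 5.78 and 4.51 FPKM with shPCYT2-2. Its shPCYT2-1 libraries lay above both controls and one shPCYT2-2 library lay between them, and the log2 fold change with shPCYT2-1 was 0.40 (SE 0.12, limma adjusted p = 0.0385). The largest subunit of the same recognition complex, ORC1, had log2 fold changes of 0.29 (limma adjusted p = 0.0959) and 0.10 (adjusted p = 0.583 in the same fit). The shPCYT2-1 calls of ORC6 and CDC6 were lost whichever of the shNT and shPCYT2-1 libraries was left out. Both calls were also lost with no filter on low values and with the trend on GC content and length removed. After that removal ORC6 had 0.22 and CDC6 0.29.

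CDT1, the loading factor that geminin holds in check outside G1, was the only member called lower with shPCYT2-2 than with shNT. Its level was 25.9 and 31.99 FPKM with shNT, 29.3 and 29.3 FPKM with shPCYT2-1, and 20.6 and 19.5 FPKM with shPCYT2-2. The shPCYT2-1 libraries lay between the 2 controls, whereas both shPCYT2-2 libraries lay below all 4 others. The log2 fold change was 0.02 (SE 0.10, limma adjusted p = 0.880) with shPCYT2-1 and -0.50 (SE 0.10, limma adjusted p = 0.0151) with shPCYT2-2, and the hairpins differed by -0.53 (limma adjusted p = 0.00475). Of the 2 calls, the one against shNT was lost without shNT replicate 2, without either shPCYT2-2 library and with no filter on low values, while the one between hairpins was kept under every alternative tried.

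The MCM2 to MCM7 transcripts added up to 324.5 and 360.2 FPKM with shNT, 408 and 391 FPKM with shPCYT2-1, and 354 and 320.1 FPKM with shPCYT2-2. The sums of the shPCYT2-1 libraries were above all others, and those of shPCYT2-2 overlapped the controls. Within the ring, MCM5 was at 10.3 and 13.6 FPKM with shNT, 16.0 and 15.9 FPKM with shPCYT2-1, and 11.6 and 11.01 FPKM with shPCYT2-2. The controls of MCM5 were far apart, and both shPCYT2-2 libraries lay between them. Its log2 fold change was 0.40 (SE 0.11, limma adjusted p = 0.0317) with shPCYT2-1, and the hairpins differed by -0.46 (limma adjusted p = 0.0171). MCM2 was called higher with shPCYT2-1 (log2 fold change 0.26, limma adjusted p = 0.0317), and its hairpins differed by -0.28 (limma adjusted p = 0.0257). MCM4 was called with shPCYT2-2 (0.28, SE 0.08, limma adjusted p = 0.0480) and had 0.21 with shPCYT2-1 (limma adjusted p = 0.0788). MCM7, at 244 and 235 FPKM with shPCYT2-1 and 199.9 and 184 FPKM with shPCYT2-2, missed the threshold against shNT with both hairpins (limma adjusted p = 0.0505 for shPCYT2-1 and 0.274 for shPCYT2-2), but the hairpins differed by -0.32 (limma adjusted p = 0.00856). MCM3 and MCM6 were not called in any comparison. The MCM4 call was lost whichever library was left out and under a pseudocount of 0.1. It was also lost under median-ratio scaling, with no filter, with the replicate number as a block and with no variance trend. The MCM2 and MCM5 calls with shPCYT2-1 were lost under median-ratio scaling, with no filter, without shNT replicate 1 and without either shPCYT2-1 library, and that of MCM2 also with no variance trend. The MCM5 fold change was 0.22 without shNT replicate 1 (limma adjusted p = 0.109), and its call was also lost without either shPCYT2-2 library.

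Of the 6 genes that activate the helicase, GINS1 was called higher with both hairpins and the others with neither. That is 16.7% of them with each hairpin, where 16.5% and 7.69% of all genes were called higher. This subunit of the 4-protein GINS complex (chromosome 20, 25407727 to 25452628, GRCh38) was at 7.05 and 6.53 FPKM with shNT, 12.2 and 12.5 FPKM with shPCYT2-1, and 13.0 and 10.8 FPKM with shPCYT2-2. All 4 knockdown libraries lay above both controls, and the ratio of group means was 1.82 with shPCYT2-1 and 1.75 with shPCYT2-2. The log2 fold changes were 0.78 (SE 0.10, limma adjusted p = 0.00161) and 0.72 (SE 0.10, limma adjusted p = 0.00541), the highest of the 40 tested members with each hairpin, and the hairpins differed by -0.06 (SE 0.10, limma adjusted p = 0.704). The shPCYT2-2 call was lost without shPCYT2-2 replicate 1 and with no filter on low values, whereas the shPCYT2-1 call was kept under every alternative tried. The other GINS subunits did not show this pattern. GINS2 was at 4.65 and 5.601 FPKM with shNT, 6.42 and 4.90 FPKM with shPCYT2-1, and 4.61 and 3.24 FPKM with shPCYT2-2, so that the shPCYT2-1 libraries were on both sides of the higher control. GINS2, GINS3 and GINS4 had log2 fold changes of 0.12, 0.10 and 0.26 with shPCYT2-1 and -0.32, -0.19 and 0.13 with shPCYT2-2, and none was called in any comparison.

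CDC45, which joins MCM2 to MCM7 and GINS in the active helicase, gave the largest difference between the hairpins among the members. It was at 7.87 and 8.34 FPKM with shNT, 12.4 and 9.66 FPKM with shPCYT2-1, and 8.16 and 5.15 FPKM with shPCYT2-2. The shPCYT2-1 libraries were above the controls, and the shPCYT2-2 libraries were 1 between and 1 below them. The hairpins differed by a log2 value of -0.67 (SE 0.18, limma adjusted p = 0.0213), whereas neither hairpin differed from shNT past the threshold (0.39, limma adjusted p = 0.127, and -0.28, limma adjusted p = 0.308). That call was lost when shPCYT2-1 replicate 1 or shPCYT2-2 replicate 2 was left out or low values were not filtered, and the difference ran from -0.96 to -0.38 over the fits that left out a library. MCM10, the scaffold that helps start unwinding, had log2 fold changes of 0.37 (limma adjusted p = 0.0801) and 0.14 (adjusted p = 0.521 in the same fit).

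Of the 5 polymerase and primase genes, 1 was called higher with shPCYT2-1 (POLE2) and 0 with shPCYT2-2 or between the hairpins, where 26.7%, 12.4% and 27.1% of all genes were called. POLE2 was at 1.80 and 1.47 FPKM with shNT, 2.85 and 2.67 FPKM with shPCYT2-1, and 2.23 and 1.72 FPKM with shPCYT2-2. Its shPCYT2-1 libraries were above all others and its log2 fold change with that hairpin was 0.52 (SE 0.12, limma adjusted p = 0.0164), while shPCYT2-2 gave 0.17 (limma adjusted p = 0.367). The POLE2 call was lost with no filter on low values, without shNT replicate 2 and without shPCYT2-1 replicate 1. POLE, the catalytic subunit of the same polymerase, had a log2 fold change of -0.02 (SE 0.11) with the first hairpin and 0.01 (SE 0.11) with the second, and was not called. POLD1 was the only member with all 4 knockdown libraries below both controls, at 39.5 and 45.2 FPKM with shNT, 37.6 and 37.8 FPKM with shPCYT2-1, and 37.7 and 35.8 FPKM with shPCYT2-2. It was not called with either hairpin (-0.16, limma adjusted p = 0.146, and -0.20, limma adjusted p = 0.119). POLA1 and PRIM1, parts of the polymerase alpha and primase complex that lays down primers, had log2 fold changes of 0.30 and 0.25 with shPCYT2-1 and were not called.

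Of the 6 genes for the clamp, its loader and the flap nuclease, 4 were called higher and 0 lower with shPCYT2-1, where 16.5% of all genes were called higher. PCNA (chromosome 20, 5114953 to 5126626, GRCh38) was at 91.1 and 93.5 FPKM with shNT, 130.2 and 119 FPKM with shPCYT2-1, and 117 and 96.4 FPKM with shPCYT2-2. Both knockdown groups were above the controls, although the lower shPCYT2-2 library was close to them. The log2 fold change was 0.43 (SE 0.09, limma adjusted p = 0.0104) with shPCYT2-1 and 0.20 (limma adjusted p = 0.164) with shPCYT2-2. RFC3, a small subunit of the clamp loader (chromosome 13, 33818049 to 33966558, GRCh38), was at 8.24 and 8.48 FPKM with shNT, 14.01 and 12.9 FPKM with shPCYT2-1, and 9.16 and 8.38 FPKM with shPCYT2-2. The shPCYT2-1 libraries stood far above the others, and the shPCYT2-2 libraries fell on both sides of the higher control. Its log2 fold change was 0.63 (SE 0.09, limma adjusted p = 0.00212) with shPCYT2-1 and 0.06 (limma adjusted p = 0.670) with shPCYT2-2, and the difference between the hairpins was -0.57 (SE 0.09, limma adjusted p = 0.00207).

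The other loader subunits RFC4 (0.43, limma adjusted p = 0.00736) and RFC2 (0.35, limma adjusted p = 0.0152) were called higher with shPCYT2-1, and RFC5 had 0.35 (limma adjusted p = 0.0988). The shPCYT2-1 calls of PCNA, RFC2 and RFC4 were lost without shPCYT2-1 replicate 1, those of PCNA and RFC2 also with no filter, and that of RFC2 also without shNT replicate 1. Summed over RFC2 to RFC5, the loader was at 61.0 and 62.4 FPKM with shNT, 86.9 and 80.3 FPKM with shPCYT2-1, and 73.0 and 66.4 FPKM with shPCYT2-2, and no knockdown library came down to the controls. FEN1, the nuclease that trims the flaps of Okazaki fragments, had log2 fold changes of 0.25 (limma adjusted p = 0.102) and 0.17 (adjusted p = 0.287 in the same fit). In the single-strand binding complex RPA, RPA1 was called higher with shPCYT2-1 (0.29, limma adjusted p = 0.0270) and the hairpins differed by -0.40 (limma adjusted p = 0.00709), while RPA2 and RPA3 were not called. The RPA1 call with shPCYT2-1 was lost with no filter, under median-ratio scaling and without any single shNT or shPCYT2-1 library, and the one between the hairpins without shPCYT2-1 replicate 1 or shPCYT2-2 replicate 2.

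**Figure D3:**
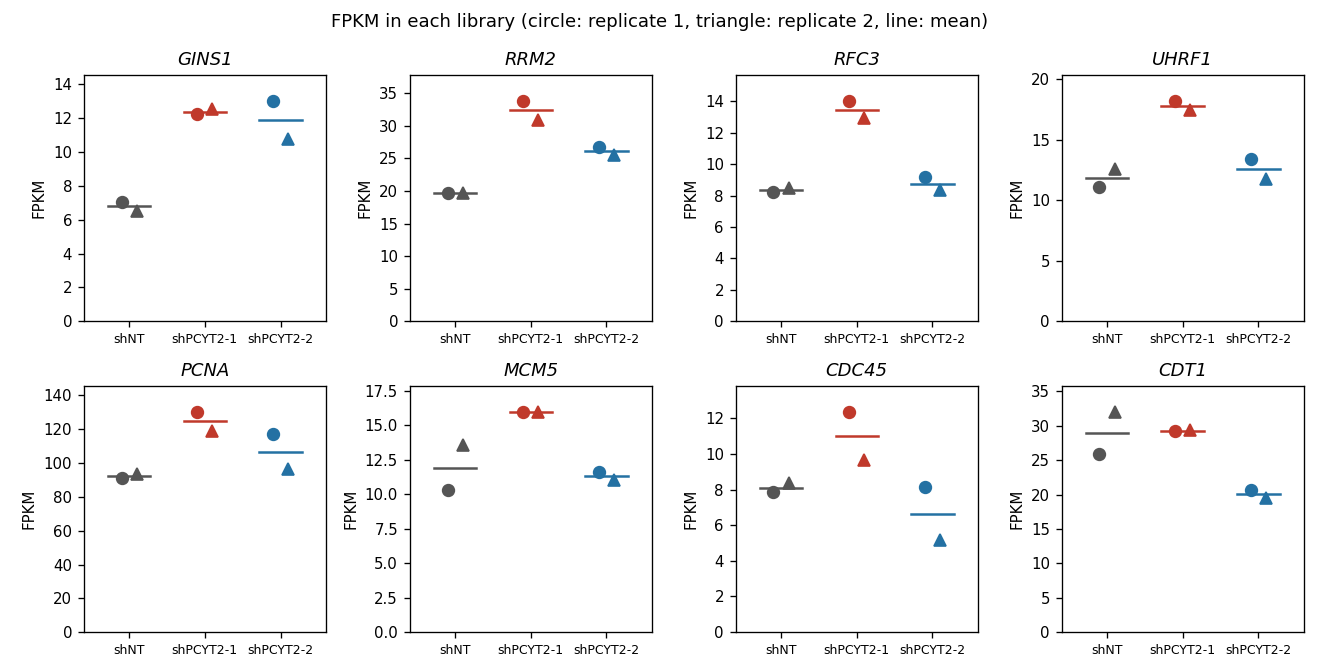
FPKM in each of the 6 libraries for 8 members, with shNT in gray, shPCYT2-1 in red and shPCYT2-2 in blue, and a line at each group mean. GINS1, RRM2 and PCNA are above both controls in all 4 knockdown libraries. RFC3 and UHRF1 are among the members raised in the shPCYT2-1 libraries, and CDT1 is lowest in those of shPCYT2-2.

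Both subunits of ribonucleotide reductase, which makes deoxyribonucleotides, were called higher with shPCYT2-1, as 2 of the 4 genes of nucleotide supply, where 16.5% of all genes were called higher. RRM2, the small subunit whose level is known to follow S phase (chromosome 2, 10120698 to 10131419, GRCh38), was at 19.8 and 19.7 FPKM with shNT, 33.8 and 30.9 FPKM with shPCYT2-1, and 26.7 and 25.5 FPKM with shPCYT2-2. The 3 groups did not overlap, with shPCYT2-2 between the others. The log2 fold change was 0.68 (SE 0.07, limma adjusted p = 0.000877) with shPCYT2-1 and 0.39 (SE 0.07, limma adjusted p = 0.0145) with shPCYT2-2, and the hairpins differed by -0.30 (limma adjusted p = 0.0166). The shPCYT2-1 call of RRM2 was kept under every alternative tried, and the shPCYT2-2 call was lost without shNT replicate 2, without either shPCYT2-2 library and with no filter. RRM1, the large subunit, was at 22.7 and 22.6 FPKM with shNT, 34.1 and 31.0 FPKM with shPCYT2-1, and 28.99 and 23.7 FPKM with shPCYT2-2. Its groups did not overlap either and stood in the same order, with a log2 fold change of 0.51 (SE 0.10, limma adjusted p = 0.00713) for shPCYT2-1 and 0.21 (limma adjusted p = 0.182) for shPCYT2-2, and the hairpins differed by -0.30 (limma adjusted p = 0.0482). That difference was -0.16 without shPCYT2-2 replicate 2, and its call was lost without any library but shPCYT2-2 replicate 1. TYMS and TK1, which supply thymidylate, were not called in any comparison. Their log2 fold changes were 0.12 and 0.20 with shPCYT2-1 and 0.23 and 0.02 with shPCYT2-2.

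Among the members that drive entry into S phase, CCNE1, E2F1 and E2F2 were tested. Of these 3, 0 were called with either hairpin, and 0 had an unadjusted limma p under 0.05. Over all genes 26.7% and 12.4% were called, so that 0 of 3 is near the background. E2F1, an activating E2F factor, was at 14.9 and 17.4 FPKM with shNT, 15.1 and 15.3 FPKM with shPCYT2-1, and 15.4 and 14.4 FPKM with shPCYT2-2, so its groups overlapped. CCNE1, a cyclin of the kinase CDK2, had log2 fold changes of -0.003 (SE 0.12) and 0.08 (SE 0.12), and E2F2 had 0.09 and -0.04. CCNE2, which was too low to test, was at 0.250 and 0.315 FPKM with shNT, 0.427 and 0.407 FPKM with shPCYT2-1, and 0.945 and 0.555 FPKM with shPCYT2-2. Those 3 groups did not overlap, but the values are low and 37.0% of the CCNE2 exon bases are shared with INTS8 on the other strand.

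Chromatin assembly at the fork was represented by 3 genes. UHRF1, which reads newly made, hemimethylated DNA and recruits the maintenance methyltransferase (chromosome 19, 4903080 to 4962154, GRCh38), was at 11.1 and 12.6 FPKM with shNT, 18.2 and 17.4 FPKM with shPCYT2-1, and 13.4 and 11.7 FPKM with shPCYT2-2. The shPCYT2-1 libraries were clear of the others and the shPCYT2-2 libraries overlapped the controls. The log2 fold change was 0.55 (SE 0.09, limma adjusted p = 0.00432) with shPCYT2-1 and 0.08 (limma adjusted p = 0.602) with shPCYT2-2, and the hairpins differed by -0.47 (SE 0.09, limma adjusted p = 0.00636). CHAF1A and CHAF1B, subunits of the assembly factor that deposits histones behind the fork, had log2 fold changes of 0.18 and 0.27 with shPCYT2-1 and 0.06 and -0.04 with shPCYT2-2, and were not called.

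**Figure D4:**
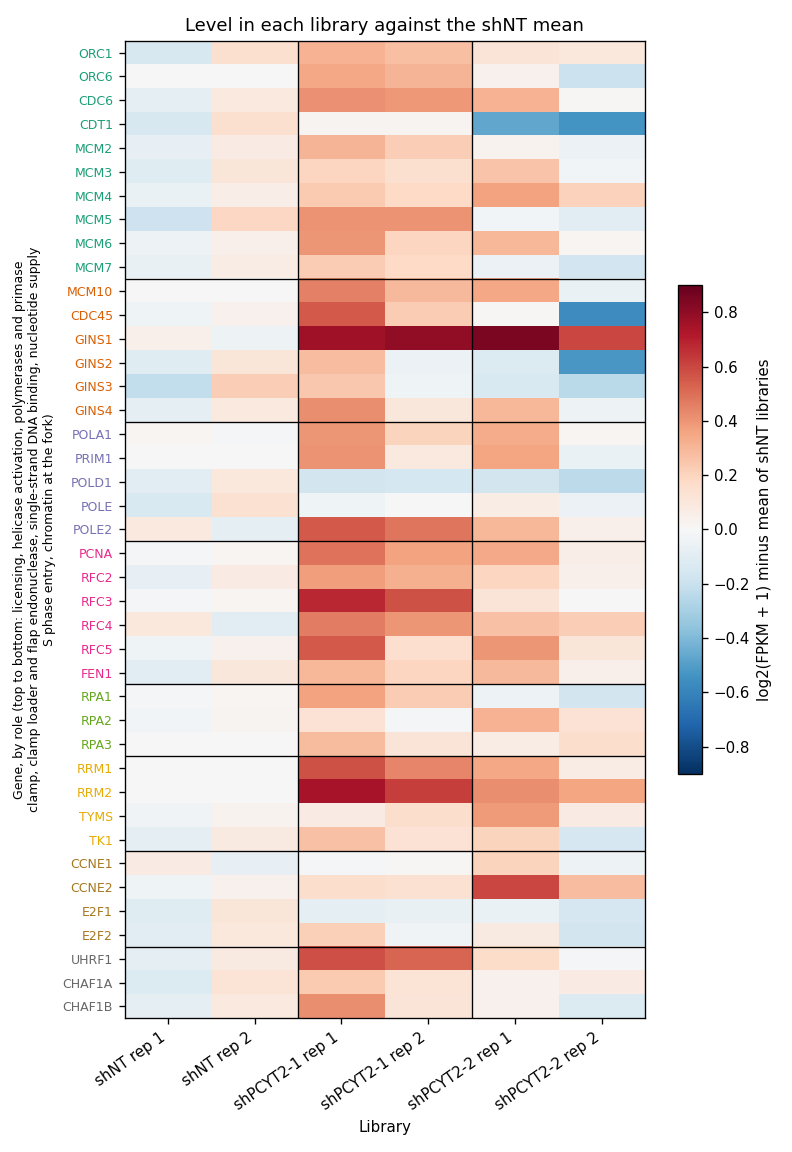
Each member's log2(FPKM + 1) in each of the 6 libraries minus its mean over the 2 shNT libraries, in rows by role (red above, blue below). Red prevails in the shPCYT2-1 columns, and GINS1 and RRM2 are among several members that are red in all 4 knockdown columns. The lowest knockdown column is shPCYT2-2 replicate 2 for 36 of the 40 tested members.

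The libraries of a group differed in these genes. Within shPCYT2-2, 38 of the 40 tested members were higher in replicate 1 than in replicate 2, with a median log2 difference of 0.20, whereas 70.2% of all genes tested were higher in replicate 1. In shPCYT2-1 the count was 33 of 40 with a median of 0.11 (56.1% of all genes), and in shNT it was 10 of 40 with a median of -0.13 (49.8% of all genes). The summed FPKM of the 40 members was 821 and 892 with shNT, 1068 and 1001 with shPCYT2-1, and 945 and 829 with shPCYT2-2. Both shPCYT2-1 libraries exceeded all others, and shPCYT2-2 replicate 2 was between the 2 controls. That library was also the lowest of the 4 knockdown libraries for 36 of the 40 members. Relative to the shNT mean, the median member stood at 0.35 and 0.19 in the shPCYT2-1 libraries and at 0.19 and -0.02 in the shPCYT2-2 libraries on the log2 scale. A set of 20 genes of mitosis differed between the shNT libraries the other way, with 16 of 20 higher in replicate 1. What sets the libraries of a group apart was not tested.

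**Figure D5:**
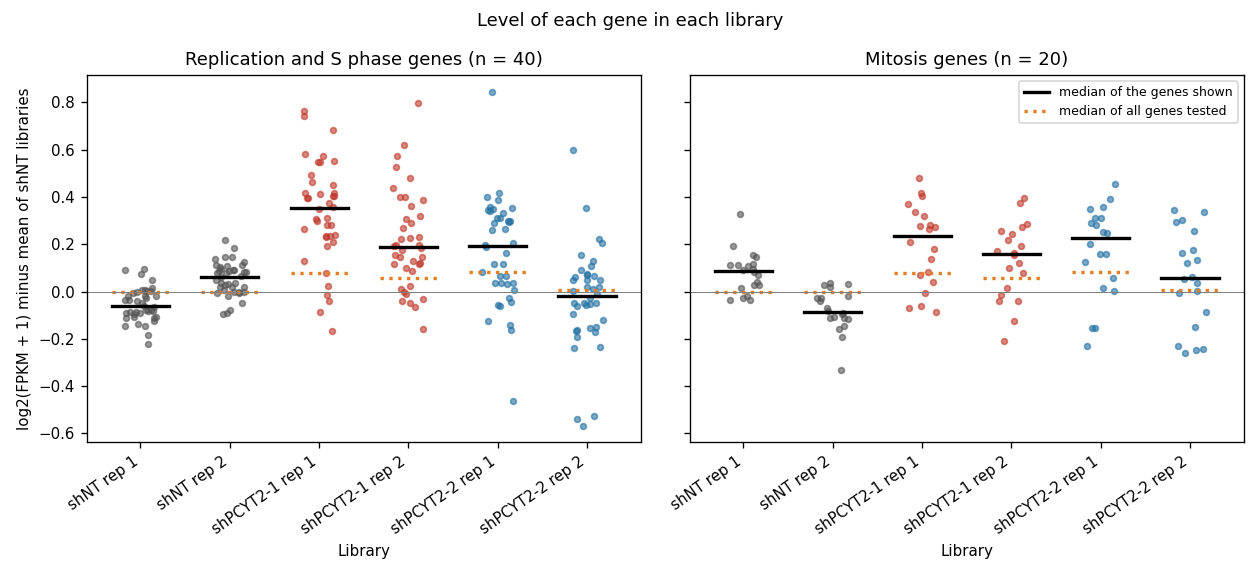
Log2(FPKM + 1) minus the shNT mean in each library for the 40 tested replication genes (left) and 20 mitosis genes (right), 1 point per gene, with the median of the genes shown (black) and of all 12756 genes (dotted). The replication median is highest in shPCYT2-1 replicate 1, at 0.35, and lies at -0.02 in shPCYT2-2 replicate 2.

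When the 4 knockdown libraries were treated as a single group against shNT, 0 members were called, and over all genes the background was 0.00784%. At an unadjusted limma p under 0.05, 6 members were higher and 0 lower (11.7% and 4.97% of all genes), 34 of 40 fold changes were positive (60.5% of all genes), and the median log2 fold change was 0.17 against 0.05 for all genes. GINS1 had a log2 fold change of 0.75 (SE 0.10, limma adjusted p = 0.115) and RRM2 0.53 (SE 0.12, limma adjusted p = 0.152). In this fit the difference between the hairpins counts as spread. Taking instead the mean of the 2 hairpins in the fit with 3 groups, 8 members were called higher (MCM4, GINS1, PCNA, RFC3, RFC4, RRM1, RRM2 and UHRF1), and 16.8% of all genes were called in either direction and 10.9% higher. All 4 knockdown libraries lay above both shNT libraries for 10 members (20.7% of all genes), namely MCM4, GINS1, POLA1, PCNA, RFC4, RFC5, RPA3, RRM1, RRM2 and TYMS, and below them for POLD1 (9.48% of all genes).

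Of 36 other replication genes, all tested, 8 were called higher and 1 lower with shPCYT2-1, 3 higher and 2 lower with shPCYT2-2, and 2 higher and 8 lower with shPCYT2-2 than with shPCYT2-1. That is 25.0%, 13.9% and 27.8% of the list, where 26.7%, 12.4% and 27.1% of all genes were called. PRIM2, the large primase subunit, was at 4.802 and 4.86 FPKM with shNT, 8.60 and 7.21 FPKM with shPCYT2-1, and 6.75 and 5.68 FPKM with shPCYT2-2 (shPCYT2-1 log2 fold change 0.61, limma adjusted p = 0.00630). TIPIN, a fork protection factor, rose by 0.56 with shPCYT2-1 (limma adjusted p = 0.00536), and DNA2, a nuclease of lagging strand processing, by 0.49 (limma adjusted p = 0.0145). The DNA2 value was 0.77 with a pseudocount of 0.1 and 0.28 with the trend on GC content and length removed, and its call was lost with no filter, without shNT replicate 2 and without either shPCYT2-1 library. POLD4, a small subunit of polymerase delta, fell with shPCYT2-1 (-0.37, limma adjusted p = 0.00820). Without shPCYT2-1 replicate 1 the calls of POLD4 (-0.34) and PRIM2 (0.49) with that hairpin were lost. With shPCYT2-2 the recognition complex genes ORC3 (0.47) and ORC5 (0.35) and the histone mRNA binding factor SLBP (0.31) rose, and the helicase RECQL4 (-0.42) and the nucleotide pyrophosphatase DCTPP1 (-0.25) fell, with limma adjusted p of 0.0195 to 0.0451. ORC5 was also called higher with shPCYT2-1 (0.30, limma adjusted p = 0.0396). These 5 calls with shPCYT2-2 were lost with no filter, without shNT replicate 2 (where ORC3 had 0.31 and RECQL4 -0.28) and without either shPCYT2-2 library. With the trend on GC content and length removed ORC3 had 0.31 and ORC5 0.21, both still called. RECQL4 (-0.58), DONSON (-0.56), a replisome factor, and LIG1 (-0.55), which seals Okazaki fragments, were lower with shPCYT2-2 than with shPCYT2-1.

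In a list of 22 genes of G1/S control, 6 were called higher and 2 lower with shPCYT2-1, and 6 higher and 1 lower with shPCYT2-2. Over all genes 16.5% were called higher and 10.1% lower with shPCYT2-1, and 7.69% higher and 4.74% lower with shPCYT2-2. CCND1, the D-type cyclin that partners CDK4 and CDK6, was at 132 and 134 FPKM with shNT, 96.8 and 97.6 FPKM with shPCYT2-1, and 199.4 and 196 FPKM with shPCYT2-2. The groups did not overlap and the hairpins lay on opposite sides of shNT, with log2 fold changes of -0.45 (SE 0.05, limma adjusted p = 0.00123) and 0.57 (SE 0.05, limma adjusted p = 0.00123) and a difference of 1.02 (limma adjusted p = 2.21e-05). E2F7, a repressive E2F factor, was at 1.14 and 1.121 FPKM with shNT, 3.68 and 3.99 FPKM with shPCYT2-1, and 1.81 and 1.54 FPKM with shPCYT2-2. Its log2 fold change was 1.18 (SE 0.11, limma adjusted p = 0.000414) with shPCYT2-1 and 0.33 (limma adjusted p = 0.0749) with shPCYT2-2. CDK6 (0.52 and 0.59) and RB1 (0.39 and 0.51) rose with both hairpins, CCND2 rose (0.49) and the kinase inhibitor CDKN1C fell (-0.65) with shPCYT2-1, and CDK4 fell (-0.29) with shPCYT2-2. The CDK6 calls with both hairpins, the CDKN1C call with shPCYT2-1 and the RB1 and CDK4 calls with shPCYT2-2 were lost with no filter and without shNT replicate 2, and RB1 had 0.30 with shPCYT2-2 after correction for GC content and length. The shPCYT2-1 calls of CDK6 (0.46) and CDKN1C (-0.51) were also lost without shPCYT2-1 replicate 1. CDK2, the kinase that binds cyclin E, is named after its values were seen, and was at 14.2 and 15.9 FPKM with shNT, 20.9 and 18.9 FPKM with shPCYT2-1, and 22.4 and 19.7 FPKM with shPCYT2-2. It was called higher with both hairpins (0.38, limma adjusted p = 0.0184, and 0.45, limma adjusted p = 0.0187). Whether these CDK2 calls hold under the alternatives was not examined.

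In the list of 20 mitosis genes, 4 were called higher and 0 lower with shPCYT2-1 and 2 higher and 0 lower with shPCYT2-2, with unadjusted counts of 9 higher and 0 lower and of 7 higher and 2 lower. The adjusted calls are 20% and 10% of the list, beside 16.5% and 7.69% of all genes called higher. At the unadjusted threshold 25.9% of all genes were higher and 15.0% lower with shPCYT2-1, and 19.6% and 11.6% with shPCYT2-2. CDK1, the kinase that drives entry into mitosis, had log2 fold changes of 0.40 (limma adjusted p = 0.0282) and 0.35 (adjusted p = 0.0675 in the same fit), and the checkpoint kinase BUB1 0.29 (limma adjusted p = 0.0395) and 0.33 (adjusted p = 0.0439 in the same fit). KIF23, a kinesin of cytokinesis, rose by 0.39 with shPCYT2-1, and AURKB, a chromosomal passenger kinase, rose with both hairpins (0.27 and 0.30). Without shNT replicate 2 the CDK1 value with shPCYT2-1 was 0.21 and the BUB1 values were 0.18 and 0.22, with the calls lost, and with the trend on GC content and length removed CDK1 had 0.18 and BUB1 0.13 and 0.19, again with the calls lost, and KIF23 had 0.23. The KIF23 call was lost without shNT replicate 2 and without either shPCYT2-1 library, and the AURKB call with shPCYT2-2 with no filter and without either shPCYT2-2 library. Between the hairpins 1 mitosis gene, BIRC5, was called (-0.24, limma adjusted p = 0.0474), where 27.1% of all genes were called and 14.2% were lower. The BIRC5 call was lost without any single hairpin library. The median difference was -0.05, against -0.19 for the replication genes. Whether the lists differ from each other was not tested.

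Some values rest on sequence shared with other genes. Over 10% of the exon bases of 7 members overlap another annotated gene, among them TYMS (39.1%, with ENOSF1), MCM2 (22.7%) and RRM2 (20.2%), and whether reads were counted by strand is not stated. Also, 7 members (PCNA, RFC3, RFC5, FEN1, RPA2, RRM2 and TYMS) have processed pseudogenes named after them, 14 in all, so that a part of their reads may have been split between copies.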

How the data were processed

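The authors deposited 1 table per library with an Ensembl identifier and a normalized value per gene. From their range and totals the deposited values were taken to be FPKM; they cannot be told apart from TPM over part of the genes. Read counts were not used here, the depth is unknown, and no interval for counting error is given. The submitters' processing notes list GRCh38, GRCm38 and mm10 without saying which was used for what. The aligner, annotation and strand setting are not given in the sources used here. Each table lists only genes with a value, and a gene absent from a table was set to 0.

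Rows of the same identifier (115 identifiers) were added up, and 999 sets of identifiers that were identical in every library and listed in at least 3 were merged (E2F2, POLA2 and CDKN1C among them). Names and positions came from GENCODE 29, promoters from RefSeq (GRCh38.p14). Values were analyzed as log2(FPKM + 1) for genes with a mean of at least 0.5 in limma 3.58.1 (R 4.3.3) with a mean-variance trend, and p values were adjusted by Benjamini-Hochberg over all 12756 genes. A fit with 3 groups gave each hairpin against shNT and the hairpins against each other, and a fit with 2 groups gave the 4 knockdown libraries against shNT. Members were named with full statistics when called, at most 12 per comparison by absolute change, and genes of other lists at most 3 per direction, list and comparison, and uncalled members are given to account for all 41. Members and lists were chosen with earlier results of these data known. The alternatives are given in the closing section.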

Additional observations from a re-analysis of the deposited data

Results flagged for a closer look

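POLD1 in shPCYT2-2 replicate 2, at 35.8 FPKM, stood apart from the other 3 knockdown libraries, with a gap of 0.908 of the range of all 4. Of 41 such groups of 4 libraries examined, 1 was marked in this way, and chance marks about 1 in 20.

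The hairpins differed by a direct limma test (adjusted p under 0.05) in the following log2 values, each shPCYT2-2 minus shPCYT2-1. Among the members these were CDC45 (-0.67), RFC3 (-0.57), CDT1 (-0.53), UHRF1 (-0.47), MCM5 (-0.46), ORC6 (-0.40), RPA1 (-0.40), MCM7 (-0.32), RRM1 (-0.30), RRM2 (-0.30) and MCM2 (-0.28), all lower with shPCYT2-2. Among other replication genes they were RECQL4 (-0.58), DONSON (-0.56), LIG1 (-0.55), RNASEH2A (-0.52), TIPIN (-0.47), GMNN (-0.32), POLE4 (-0.31) and DCTPP1 (-0.26), which were lower with shPCYT2-2, and POLD4 (0.34) and SLBP (0.33), which were higher. In G1/S control, CCND1 (1.02), CDKN1C (0.93), RBL2 (0.37) and CDKN1B (0.36) were higher with shPCYT2-2 and E2F7 (-0.86), CDK4 (-0.49) and CCND2 (-0.42) lower. In mitosis, BIRC5 was lower (-0.24).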

How the results depend on the processing

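Leaving low values unfiltered adds genes to the fit and to the adjustment. With no filter, 5 members were called for shPCYT2-1 against shNT, 0 for shPCYT2-2 against shNT and 7 between the hairpins. The shares of all genes called were 9.27%, 0.628% and 12.3%. At an unadjusted limma p under 0.05 the member counts were 17, 8 and 14, in place of 23, 7 and 16. The mean of the 2 hairpins in the fit with 3 groups called 8 members in place of 0 (16.8% of all genes), and gave PCYT2 a log2 fold change of -0.80 past the threshold (limma adjusted p = 0.00334, against 0.115 with the knockdown libraries as 1 group). With the trend on GC content and length removed, PCYT2 differed between the hairpins by -0.22 (limma adjusted p = 0.0274), and the cause was not tested. Leaving out 1 library at a time, which leaves a group with a lone library assumed to vary like the others, gave 5 to 14 members called for shPCYT2-1 (5 without shPCYT2-1 replicate 1, and 9 without shNT replicate 1), 0 to 5 for shPCYT2-2, 2 to 12 between the hairpins and 0 for the 4 knockdown libraries against shNT. The share of all genes called ran from 8.99% to 25.5%, from 0.98% to 14.8% and from 13.0% to 29.7% in the first 3 comparisons. Over those fits the PCYT2 log2 fold change ran from -0.84 to -0.62, from -0.99 to -0.76, from -0.20 to -0.09 and from -0.92 to -0.69 in the same order. Same-numbered libraries deviated together between the hairpins (r over genes 0.19) but hardly between shNT and either hairpin (0.003 and 0.06), so the numbers were not taken as pairs, and with the replicate number as a block 16, 3, 12 and 0 members were called in place of 14, 4, 11 and 0, while the share of all genes called was 30.4%, 15.9% and 30.3% in place of 26.7%, 12.4% and 27.1% in the first 3.

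Of 64 calls named by the rule given with the processing, 18 were kept under every alternative. None of the 896 values under an alternative changed direction, while 193 lost the threshold. Calls mentioned outside that rule were not examined in this way. They are CDK2 with both hairpins, and RB1, ORC5 and AURKB with shPCYT2-1. Between the hairpins they are TIPIN, RNASEH2A, GMNN, POLE4, DCTPP1 and CDKN1B. Among the 29 calls of members 6 were kept throughout, namely GINS1, RFC3, RRM2 and UHRF1 for shPCYT2-1, and CDT1 and RFC3 between the hairpins. The tests for counts were not run because the tables hold no counts. With 2 libraries per group and unknown depth, values of genes under a few FPKM are the least certain.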
